A study of Mus musculus with 4 samples.

Results

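RFX2 binding inside introns was examined in 587 peaks, taken from the 2726 peaks of the combined list of a chromatin immunoprecipitation sequencing (ChIP-seq) experiment on mouse testis. A peak was taken as intronic if it overlapped a protein-coding gene by at least 1 bp but met neither a merged exon nor a promoter, the latter being 1000 bp upstream to 500 bp downstream of the 5′-most transcription start site (TSS). The rule uses position only. The remaining peaks were 837 in promoters, 271 in exons and 1031 between genes. The animals were WT (wild type) with a mixed background of C57BL/6, 129/Sv and FVB/N, and the labels name decapsulated testis and an age of postnatal day 29 to 30. The study's text instead names dissociated germ cells from younger animals, and which holds is unsettled. The 4 samples were 2 RFX2 ChIP replicates and 2 inputs, which are chromatin without antibody. Inputs enter the values only through peak calling, and the read depth behind the lists is unknown. Whole testis and germ cell preparations hold several cell types, and a peak carries no record of the cell type it came from.

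RFX2 belongs to the Regulatory Factor X (RFX) proteins, transcription factors with a winged-helix DNA-binding domain. Most of them, RFX2 included, are known or predicted to form dimers, while some members do not. The dimers bind DNA at the X-box, an inverted repeat in which each protein of the pair reads 1 arm of the palindrome. In animals the family is best known for switching on genes of cilia and flagella through X-boxes close to their start sites. In testis RFX2 is found in meiotic cells and early round spermatids. The study reports that without RFX2 meiosis appeared unperturbed, while haploid spermatids stopped developing before elongation. A site deep inside an intron can act at a distance, act on another gene, or have no effect on transcription, and ChIP-seq alone does not separate these.

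The sequences below are GRCm38 reference sequence, plus strand, 5′ to 3′, around the summits of 19 of the 20 intronic peaks with the highest −log10 p in the combined list. They are shown because they are among the strongest intronic sites. An X-box was counted where the 200 bp around the summit held the palindrome GTTGCCATGGCAAC with at most 3 mismatches. In the first 15, capitals mark that best-matching 14-bp site.
Tmem108, chr9:103595308-103595427: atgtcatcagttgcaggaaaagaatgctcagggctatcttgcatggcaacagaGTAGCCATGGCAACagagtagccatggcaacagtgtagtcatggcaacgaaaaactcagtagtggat
Palm, chr10:79803824-79803877: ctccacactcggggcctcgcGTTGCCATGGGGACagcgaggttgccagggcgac
Fgf14, chr14:124669880-124669933: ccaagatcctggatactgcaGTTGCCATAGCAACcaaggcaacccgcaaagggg
Nlgn1, chr3:25807719-25807772: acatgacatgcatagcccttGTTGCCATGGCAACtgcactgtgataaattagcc
Stk3, chr15:34953029-34953082: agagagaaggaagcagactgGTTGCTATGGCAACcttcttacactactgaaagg
Por, chr5:135675065-135675118: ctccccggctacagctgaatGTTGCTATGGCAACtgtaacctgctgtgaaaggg
Ccdc6, chr10:70111844-70111897: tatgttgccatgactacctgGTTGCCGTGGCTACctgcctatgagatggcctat
Ssbp4, chr8:70601514-70601567: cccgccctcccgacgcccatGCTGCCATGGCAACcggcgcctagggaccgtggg
Trpm8, chr1:88352925-88352978: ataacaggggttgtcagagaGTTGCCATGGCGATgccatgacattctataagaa
Slc4a4, chr5:88972429-88972482: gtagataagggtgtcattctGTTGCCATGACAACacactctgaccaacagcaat
Dnah2, chr11:69546530-69546583: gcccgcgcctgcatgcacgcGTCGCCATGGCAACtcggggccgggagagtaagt
Plekha6, chr1:133188145-133188198: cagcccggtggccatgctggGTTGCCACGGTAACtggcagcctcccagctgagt
Necab2, chr8:119466213-119466266: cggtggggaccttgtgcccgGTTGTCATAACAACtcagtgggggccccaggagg
Gnas and Gm20721, chr2:174344292-174344345: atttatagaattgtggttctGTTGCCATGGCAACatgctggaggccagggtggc
Syn3, chr10:86256380-86256433: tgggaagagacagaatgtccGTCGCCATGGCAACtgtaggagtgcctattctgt
The other 4 held no X-box in the whole peak. In these, capitals mark every GTTGC or GCAAC, the outer 5 letters of 1 arm on either strand.
Kmt2d, chr15:98867362-98867481: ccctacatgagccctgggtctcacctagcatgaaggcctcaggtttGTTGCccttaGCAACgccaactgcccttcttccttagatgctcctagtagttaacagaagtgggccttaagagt
Cdrt4, chr11:62981529-62981648: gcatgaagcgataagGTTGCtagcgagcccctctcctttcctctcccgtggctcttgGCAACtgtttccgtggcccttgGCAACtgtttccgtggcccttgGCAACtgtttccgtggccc
Vangl2, chr1:172017077-172017196: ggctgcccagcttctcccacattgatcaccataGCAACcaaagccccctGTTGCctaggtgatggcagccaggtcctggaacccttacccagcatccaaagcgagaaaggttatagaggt
Rfx2, chr17:56814465-56814584: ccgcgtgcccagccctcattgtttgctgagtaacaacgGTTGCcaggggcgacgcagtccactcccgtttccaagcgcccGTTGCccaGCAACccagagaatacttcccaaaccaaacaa

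The palindrome with 0 mismatches was held by 47 of the 587 intronic peaks, and Nlgn1 and Gnas above are the strongest of them. Next in strength were the following, with the palindrome in capitals. They are shown to set the same 14 bp beside their flanks. Repeat masking covered the summits in Nlgn1, Gnas, Tmem163 and Cd44, but not those in Stard13 and Dpys. The Stard13 peak belongs to the family of 209 similar sequences described below.
Stard13 and Gm42906, chr5:151228800-151228853: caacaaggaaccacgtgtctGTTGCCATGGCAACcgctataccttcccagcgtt
Tmem163, chr1:127603968-127604021: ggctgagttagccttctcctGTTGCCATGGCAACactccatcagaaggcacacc
Cd44, chr2:102873992-102874045: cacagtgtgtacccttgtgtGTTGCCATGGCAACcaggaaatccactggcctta
Dpys, chr15:39775699-39775752: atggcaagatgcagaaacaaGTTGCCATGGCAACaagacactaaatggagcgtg

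The X-box stood at the summit of 514 of the 587 intronic peaks, or 87.6% (95% Wilson interval 84.6 to 90.0). Over all 2726 combined peaks this share was 75.4%. In windows of the same size 1000 bp to the right of the intronic summits, 4 of 587 held an X-box, or 0.68%, and the difference was 86.9 percentage points (exact McNemar test, p = 5.97e-154). In the whole list of replicate 1 alone, searched around peak centres, it was 20.7 points, and in that of replicate 2 alone 21.5 points. Those lists are far longer and hold many weak peaks, and with each limited to its strongest 2726 peaks the difference was 63.9 and 70.03 points. The sites lay close to the summit, with a median absolute distance from summit to X-box centre of 9 bp. The median signed distance was 0 bp, and the central quartiles ran from −8 to 9 bp. In 235 peaks, or 45.7% of the 514, the X-box covered the summit, and in 428, or 83.3%, its centre lay within 25 bp. A second, non-overlapping X-box was uncommon, with 62 peaks (10.6%) holding 2 or more against 2 flanks of the same length, and the most in any peak was 5.

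**Figure D1:**
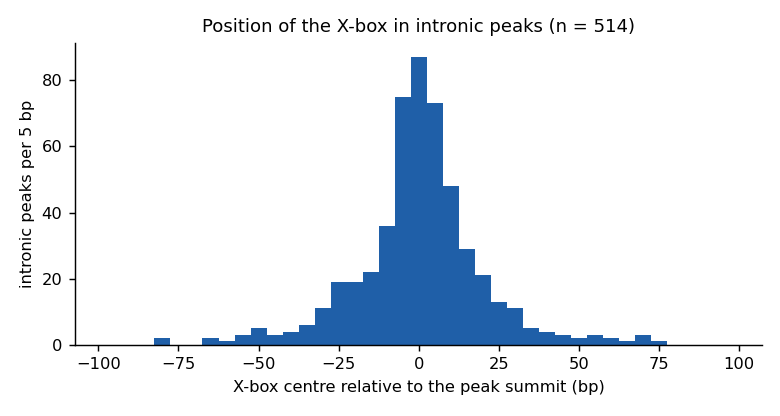
Distance in bp from the summit to the centre of the X-box (horizontal axis) for the 514 intronic peaks with an X-box, counted in bins of 5 bp (vertical axis). The counts crowd around 0 bp and fall off on both sides, with 21 sites more than 50 bp away.

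Compared with peaks elsewhere, intronic peaks resembled intergenic ones and differed most from promoters. The X-box share was 55.9% in promoter peaks (468 of 837), which is 31.6 percentage points lower than in introns (95% Newcombe interval 27.2 to 35.8, Fisher's exact test with Benjamini-Hochberg adjustment over 9 tests, adjusted p = 1.24e-38). Against exon peaks, at 79.0% (214 of 271), introns were higher by 8.60 points (interval 3.29 to 14.4, Fisher's exact test, adjusted p = 0.00262). Against intergenic peaks, at 83.4% (860 of 1031), the intronic share was higher by 4.15 points (interval 0.53 to 7.56, Fisher's exact test, adjusted p = 0.0378). The difference from intergenic peaks lost its call when the class was set by the summit alone (0.52 points), and so did that from exon peaks (1.75 points). In the whole lists of single replicates, which hold 14434 and 7865 intronic peaks, the difference from promoters was −2.32 points for replicate 1 and −6.83 points for replicate 2. From exon peaks it was −12.1 and −10.3 points, and both pairs were called, opposite in direction to the combined list. From intergenic peaks it was 0.18 and −0.92 points, with neither value called. With each of those lists limited to its strongest 2726 peaks the difference from promoters was 34.3 and 32.3 points. From exon and intergenic peaks it was then between 1.62 and 7.87 points, with none of the 4 values called.

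Among peaks with an X-box, the match itself was closer in introns than in promoters. At most 1 mismatch was found in 237 of 514 intronic X-boxes (46.1%) and in 63 of 468 promoter X-boxes (13.5%), a difference of 32.6 points (interval 27.2 to 37.8, Fisher's exact test, adjusted p = 4.87e-29). The difference was 8.69 points in the whole list of replicate 1 and 15.6 points in that of replicate 2, both called. Intergenic X-boxes reached 47.8% (411 of 860). Introns minus intergenic came to −1.68 points, with an interval from −7.10 to 3.77 (Fisher's exact test, adjusted p = 0.577).

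**Figure D2:**
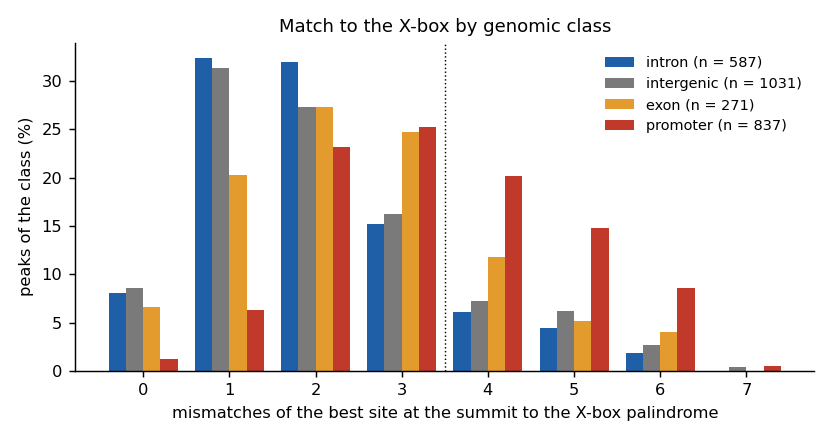
Mismatches of the best site at the summit to the 14-bp palindrome (horizontal axis) as a share of the peaks of each class in percent (vertical axis), for introns, intergenic regions, exons and promoters. The dotted line marks the limit of 3 mismatches, and introns and intergenic regions peak at 1 mismatch (32.4% and 31.3%) while promoters peak at 3 (25.2%).

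Mismatches were concentrated at few positions. In 500 of the 514 intronic X-boxes, forms were counted with each site and its reverse complement taken as the same form. The most frequent after the palindrome were G9A in 35 intronic peaks, G10A in 33, G4C in 23 and G4A in 20. Positions count from 1 at the 5′ end, and the palindrome's base is given before the position. Each form therefore also stands for its mirrored change in the other arm, as G4C and G4A do for position 11. G9A likewise includes C6T, the change in the Stk3 and Por sites printed above. Sites were also read with the better-matching arm placed at positions 1 to 7, which was possible in 373 intronic X-boxes with unequal arms. By that construction the first arm matches well, at 95.2% or more at each position. In the other arm, position 11 kept the palindrome's C in only 52.8% and position 12 its A in 65.4%, the lowest of the 14, while position 13 kept its A in 93.0%. The same positions were the lowest in 653 intergenic X-boxes (58.0% and 63.6%) and in 368 promoter X-boxes (48.1% and 46.5%).

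The palindrome went with stronger peaks. Strength is given as −log10 of the p-value of the combined call, where higher is stronger. Its median was 100.3 in the 47 intronic peaks with 0 mismatches, 74.3 in 190 with 1, 65.9 in 188 with 2 and 70.3 in 89 with 3. It was 64.5 in the 73 without an X-box. Of the 47, 37 (78.7%) lay above the intronic median of 71.1, against 256 of the other 540 (47.4%), a difference of 31.3 points (Newcombe interval 17.1 to 41.5). The intermediate classes do not fall in order, and the comparison was chosen after the values were seen. It took no account of repeat masking at the summits.

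X-boxes had no preferred direction relative to the host gene. In 370 sites with unequal arms and hosts on 1 strand, the better arm read along the host's strand in 185, or 50% (Wilson interval 44.9 to 55.1, exact binomial test, p = 1).

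In 73 intronic peaks the summit window held no X-box, and 70 intronic peaks held none anywhere in the peak. Many nonetheless held the arms in another arrangement. A pair of inverted arms GTTGCC and GGCAAC, each with at most 1 mismatch, is 2 bp apart in the palindrome. Of these 73 windows, 12 (16.4%) held such a pair 1 bp apart and 17 (23.3%) a pair 3 bp apart, against 0 and 2 of the flanks (exact McNemar test with Benjamini-Hochberg adjustment over 54 comparisons, adjusted p = 0.00176 and 0.00106). For each of the spacings of 0 and 4 to 8 bp, at most 1 of the 73 windows held a pair. Taken as 1 group, spacings of 1 or 3 bp occurred in 27 windows (37.0%) and 2 flanks (2.74%, exact McNemar test, p = 4.17e-07). With no mismatch allowed in either arm the counts were 7 windows and 0 flanks (exact McNemar test, p = 0.0156). These tests were chosen after the peaks had been seen. Intergenic peaks without an X-box held the 1-bp spacing in 20.5% and the 3-bp spacing in 9.36% of 171 windows, and promoter peaks in 16.3% and 7.59% of 369. Of the 35 intergenic windows with the 1-bp spacing, 18 belonged to a single family of similar sequences described below with Sema5b. Without that family the share was 11.1% of 153 intergenic and 14.1% of 71 intronic windows.

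**Figure D3:**
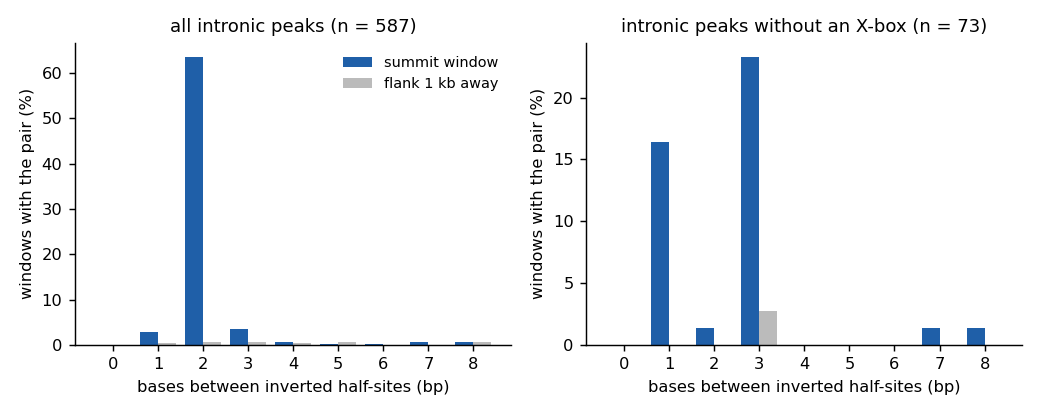
Share of windows in percent (vertical axes) with a pair of inverted X-box arms at each spacing in bp (horizontal axes), for the summit windows and the flanks of all 587 intronic peaks (left) and of the 73 without an X-box (right). The left panel has 1 main bar at the canonical 2 bp (63.5%), and the right panel has bars at 1 and 3 bp (16.4% and 23.3%).

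Examples of both spacings follow, with the arms in capitals. The first 3 have a spacer of 1 bp and the last 3 of 3 bp. Rfx2 appears in both because its peak held both, at separate places. Dlg4 had no X-box at its summit but held 1, with 2 mismatches, elsewhere in the peak.
Rfx2, chr17:56814530-56814572: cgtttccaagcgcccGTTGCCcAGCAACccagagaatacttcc
Dlg4, chr11:70021935-70021977: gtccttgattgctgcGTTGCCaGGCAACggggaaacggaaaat
P4htm, chr9:108588056-108588098: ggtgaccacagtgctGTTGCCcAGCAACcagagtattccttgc
Kmt2d, chr15:98867393-98867437: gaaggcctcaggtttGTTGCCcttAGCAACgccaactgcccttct
Rfx2, chr17:56814488-56814532: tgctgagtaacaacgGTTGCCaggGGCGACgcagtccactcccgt
Impg1, chr9:80443305-80443349: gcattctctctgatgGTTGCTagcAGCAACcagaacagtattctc

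A further 8 of the 73 peaks held 3 or more copies of the 5-letter arm in the summit window without such a pair, against 1 flank, and their median −log10 p was 122.3. Several of these are short tandem repeats in which the arm recurs in the same direction, as the following windows show with the arms in capitals. Fndc3a, Ptprg, Arhgap31 and Slc9b2 are the strongest 4 of the 8.
Fndc3a, chr14:72682065-72682184: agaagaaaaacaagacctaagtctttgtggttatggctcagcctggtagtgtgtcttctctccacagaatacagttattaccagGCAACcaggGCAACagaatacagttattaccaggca
Ptprg, chr14:11659143-11659262: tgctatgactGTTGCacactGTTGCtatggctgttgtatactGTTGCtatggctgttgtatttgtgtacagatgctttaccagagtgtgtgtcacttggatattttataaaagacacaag
Arhgap31, chr16:38615515-38615634: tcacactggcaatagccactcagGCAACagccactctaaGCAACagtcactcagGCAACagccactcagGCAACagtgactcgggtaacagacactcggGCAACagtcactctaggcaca
Slc9b2, chr3:135313886-135314005: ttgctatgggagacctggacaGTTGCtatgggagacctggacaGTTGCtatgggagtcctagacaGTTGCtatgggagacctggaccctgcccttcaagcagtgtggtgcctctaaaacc
Another 24 peaks held 1 or 2 arms in other arrangements, and 14 (19.2%) held none of the 5-letter arms. In the flanks of the 73, 61 (83.6%) held none. The median −log10 p was 52.0 in the 14 and 68.0 in the 27 with a spacing of 1 or 3 bp.

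Once the arms were blanked, no fixed motif differed between intronic summits and their flanks after adjustment. Of 11 short motifs searched on both strands, 3 passed the exact McNemar test as the windows stood (Benjamini-Hochberg adjustment over 11). They were the arm GTTGCC (75.8% of summits, 5.79% of flanks), the MYB core CNGTTG (65.8% and 22.7%, exact test, adjusted p = 4.68e-43) and the NF1 arm TTGGC (35.8% and 28.6%, adjusted p = 0.0387). The MYB core shares the letters GTTG with the X-box. With the X-box blanked, CNGTTG remained in 37.0% of summits (exact McNemar test, adjusted p = 1.03e-06), and with every GTTGC and GCAAC blanked in summits and flanks it stood at 22.3% and 17.9% (exact McNemar test, adjusted p = 0.390). At that step 0 of the 11 passed, and 1 had an unadjusted p under 0.05, the SOX core ACAAT (22.8% and 28.4%, exact McNemar test, p = 0.0304). The CCAAT box (25.7% and 24.0%), the GC box GGGCGG (5.79% and 4.26%) and the E-box CACGTG (2.56% and 1.87%) did not pass at any step.

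Intronic peaks were weaker by p-value than promoter peaks, but not by fold enrichment over local background. The median −log10 p was 71.1 in introns (quartiles 54.7 and 105.5) and 108.0 in promoters. Of intronic peaks 237 (40.4%) lay above the median of the combined list, against 554 promoter peaks (66.2%), a difference of 25.8 points to the disadvantage of introns (interval of introns minus promoters −30.8 to −20.6, Fisher's exact test, adjusted p = 1.52e-21). In the whole list of replicate 1 introns minus promoters came to −40.5 points, and in that of replicate 2 to −43.2 points. Intergenic peaks reached 42.9%, and introns minus intergenic came to −2.50 points (interval −7.44 to 2.51, Fisher's exact test, adjusted p = 0.389). Median fold enrichment was 17.7 in introns, 18.2 between genes and 14.6 in promoters. A p-value grows with the reads under a peak and in the background as well as with the ratio, and read numbers are not in the lists. Introns held 7 of the 100 strongest combined peaks (7%), 72 of the strongest 500 (14.4%) and 587 of all 2726 (21.5%).

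**Figure D4:**
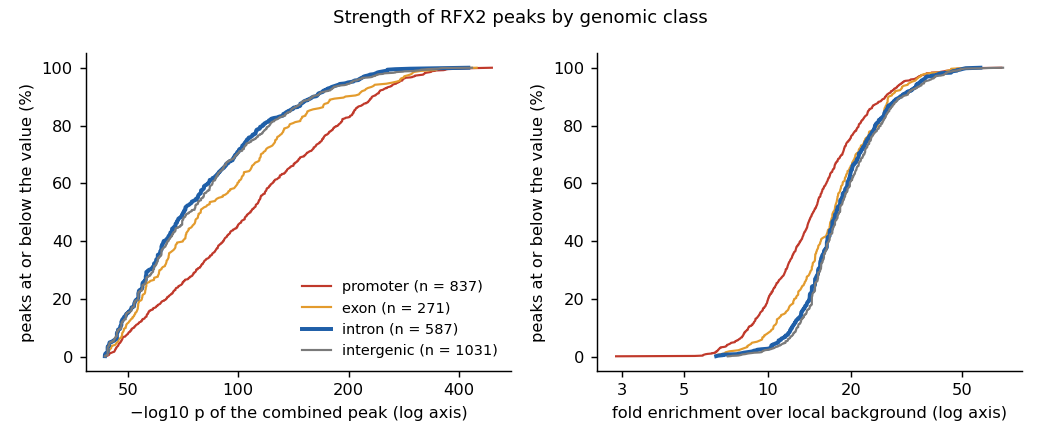
Cumulative share of peaks in percent (vertical axes) at or below a given −log10 p (left, log axis) and fold enrichment (right, log axis), for each of the 4 classes. The intronic curve runs with the intergenic one in both panels. The promoter curve lies to its right by p-value (medians 108.0 and 71.1) and to its left by fold (medians 14.6 and 17.7).

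Hosts among the 20 strongest intronic peaks are described next. The score of a replicate list is given on its own −log10 scale, first for replicate 1 and then for replicate 2. Tmem108, which encodes a neuronal transmembrane protein, had the strongest, with −log10 p of 424.8, 51.7-fold enrichment and scores of 347.8 and 161.8. It was in intron 4 of 7, 166.5 kb from the TSS, and held 3 X-boxes in the tandem copies printed above. Palm, a lipid-anchored protein of the plasma membrane, followed at 355.9 and 26.4-fold. Its scores of 265.8 and 265.8 placed it at rank 31 in replicate 1 and rank 1 in replicate 2. Palm was thus the exception among the strong peaks, since the score was otherwise higher in replicate 1.

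Several of the strongest hosts encode proteins of neurons and their synapses. Fgf14, a modulator of voltage-gated sodium channels, had a peak of 294.6 at 58.4-fold, the highest fold among intronic peaks, with scores of 212.9 and 123.1. Nlgn1, a postsynaptic adhesion protein, carried the strongest palindrome, at 268.2, 34.1-fold and scores of 249.6 and 78.8, 524.7 kb from its TSS. Syn3, a synapsin of synaptic vesicles, stood at 219.7, 46.5-fold and scores of 184.6 and 63.7. Fgf14 (699 kb), Nlgn1 (906 kb) and Syn3 (444 kb) are long genes, against a median of 16.9 kb over all protein-coding genes. Intronic peaks were found in 16.2% of genes at least as long as the median host and in 2.42% of all genes. Whether such hosts are over-represented was not tested.

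Other strong hosts encode a kinase, an electron donor, an ion channel, a transporter and a G protein subunit. Stk3, a kinase of the Hippo pathway, had 255.0 at 48.1-fold and scores of 200.6 and 73.3. Por, the electron donor of microsomal cytochromes P450, had 250.1 at 45.9-fold and scores of 201.1 and 82.3, and its summit lay 432 bp from an exon. Trpm8, a cold-sensing ion channel, had 236.2 at 49.2-fold and scores of 160.9 and 87.1. This peak covered the annotated start of the antisense gene 4930453O03Rik, so a promoter outside protein-coding annotation cannot be told apart from an intronic site there. Slc4a4, a sodium bicarbonate cotransporter, had 228.9 at 48.1-fold and scores of 176.6 and 64.7. Gnas, which encodes the stimulatory G protein alpha subunit, had 220.1 at 35.6-fold and scores of 156.3 and 74.8. Its summit was 332 bp from the start of another transcript of Gnas itself.

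The strong peaks without an X-box had values in the same range. Kmt2d, a histone H3 lysine 4 methyltransferase, had 255.7 at 39.1-fold with scores of 182.1 and 69.996, in intron 1 at 3.78 kb from the TSS. Cdrt4 had 254.6 at 36.2-fold with scores of 209.7 and 53.3, over the tandem repeat printed above. Vangl2, a core protein of planar cell polarity, had 239.3 at 32.0-fold with scores of 208.6 and 46.9. Rfx2 itself was bound in its intron 1, 16.5 kb from the TSS, at 234.8 and 25.1-fold with scores of 216.1 and 76.3. Its promoter also held a peak, at 45.2 and rank 2621 against rank 143 for the intron. The remaining members of the strongest 20 that are described here were Ccdc6, Ssbp4, Dnah2, Plekha6 and Necab2, between 222.1 and 241.8.

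At the other end, the weakest 3 intronic peaks were in Prkacb, a catalytic subunit of protein kinase A, at 43.2, and in Nfam1 and Rap1gap2, both also at 43.2. All 3 held an X-box with 1 or 2 mismatches and were called in both replicates. Their folds of 12.7, 10.3 and 10.3 were below the intronic median of 17.7.

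Both replicate lists met nearly every intronic peak. Replicate 1 overlapped 587 of 587 and replicate 2 overlapped 586, the exception being a peak in Celf4 at −log10 p of 43.3. With a reciprocal overlap of 50% required in both, 385 (65.6%) remained. Median scores were 54.9 in replicate 1 and 20.1 in replicate 2, and the score was higher in replicate 1 in 576 peaks and in replicate 2 in 10. Across 586 intronic peaks Spearman's rho of both scores was 0.58, given as a description, since the points share their libraries and their selection into the combined list. The study's methods also describe a set of peaks kept for recurring in both replicates, judged by IDR (irreproducible discovery rate), and the combined list is near that set in size. If it is that set, or a call on pooled reads, overlap with either replicate was favoured by its making and is no independent check.

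**Figure D5:**
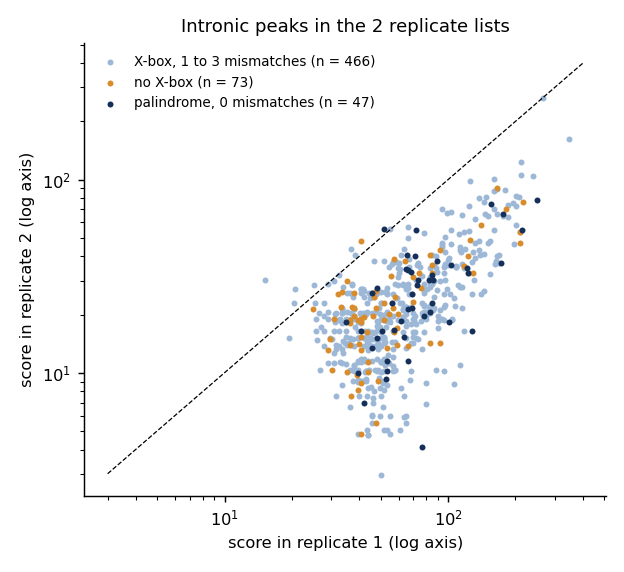
Score of each intronic peak in replicate 1 (horizontal log axis) and replicate 2 (vertical log axis), for 586 peaks, coloured by the match of the summit to the X-box. Nearly all points lie under the dashed line of equal scores, with the highest replicate 2 score, Palm at 265.8, on it.

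Intronic peaks were spread over their genes and mostly far from starts. Of 573 peaks with a single host gene, the median distance to the host's TSS was 68.1 kb (quartiles 20.8 and 172.1 kb), with 35 within 5 kb and 223 beyond 100 kb. The nearest protein-coding TSS was that of the host in 400 (69.8%). The median host intron was 28.6 kb long, and the median distance to the nearest exon was 6198 bp. The first intron held 132 of the 573, or 23.0% (Wilson interval 19.8 to 26.7), and first introns made up 20.004% of the intronic bases of single genes, which lies inside that interval. Intronic peaks of the replicate lists that did not meet the combined list were in first introns in 19.6% (replicate 1) and 19.9% (replicate 2). With introns of the longest transcript used instead, the share was 170 of 525 peaks, or 32.4% (interval 28.5 to 36.5), and first introns made up 25.3% of those transcripts' intronic bases, outside the interval. The place of the share relative to the base share thus changed with the definition. Peak density was 0.627 per Mb over 935.9 Mb of intron and 0.640 per Mb over 1611 Mb between genes. The counts leave out peaks that touch an exon or promoter by 1 bp, which lowers the intronic density more than the intergenic one. With the class set by the summit alone, 765 peaks were intronic and 1042 intergenic, in place of 587 and 1031. The 2 densities therefore depend on the overlap rule.

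A minority lay at starts that the promoter definition leaves out. Within 500 bp of the start of any annotated transcript there were 34 of the 587 intronic peaks, namely 17 at alternative starts of protein-coding genes, 11 at antisense genes and 6 at other types. Fscn1, an actin-bundling protein, had such a peak 115 bp from a start, at 93.9 and 12.5-fold. Mybl2, a transcription factor of the MYB family, had another 196 bp from a start, at 54.8. CpG-rich summits, with 10 or more CpG in 200 bp, were found in 23 intronic peaks (3.92%). Of these 17 (73.9%, interval 53.5 to 87.5) held an X-box and 4 (17.4%) a site with at most 1 mismatch, against 497 (88.1%, interval 85.2 to 90.5) and 233 (41.3%) of the other 564. Palm, Ssbp4, Rfx2, Dnah2 and Necab2 were the CpG-rich peaks among the strongest 20. This grouping was chosen after the values were seen and was not tested. The median GC content of intronic summit windows was 48.5%, the same as between genes, against 60% in promoters.

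The 587 peaks fell in 529 host genes, which is 2.42% of the 21853 protein-coding genes. Host genes were long, with a median of 135.6 kb against 16.9 kb for all protein-coding genes, and 16.2% of genes at least as long as the median host held an intronic peak. Most hosts, 466, had 1 peak, 57 had 2, and 6 had 3 or more. Gm20388 had 7, but its annotation is a read-through gene of 4435 kb that covers several others. Anks1b, an ankyrin repeat protein of synapses, had 3 at 189.2, 71.2 and 54.7 over a gene of 1100 kb. Tmem132b (108.9, 102.6 and 93.9), Myt1l, a neuronal zinc finger factor (85.1, 71.7 and 46.6), Fstl4 (70.3, 69.8 and 64.5) and Ptprf, a receptor tyrosine phosphatase (55.2, 51.9 and 47.8) had 3 each.

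In the combined list the share of intronic hosts with a promoter peak was near that of all genes. Of the 529 hosts, 18 also held a promoter peak, or 3.403% (95% exact interval 2.03 to 5.32), and over all protein-coding genes the share was 4.48%, inside that interval. In the whole list of replicate 1 the share of hosts with a promoter peak was 11.3% (exact interval 10.5 to 12.2). In that of replicate 2 it was 9.97% (interval 9.07 to 10.9). Over all protein-coding genes the shares in the same lists were 9.72% and 8.27%, each below the interval. Among hosts of the combined list at least as long as the median host, 7 of 265 (2.64%) had a promoter peak. Among all genes of that length 82 of 1637 (5.01%) had one. The 18 included Rsph14, Ccdc30, Nek10, Sfi1 and Tub, of which Rsph14 had the strongest promoter peak (256.8, against 46.96 for its intronic peak, which lies in Gnaz as well). In Cdkl1, a cyclin-dependent kinase-like protein, the order was the other way, with 170.5 in the intron and 124.2 at the promoter. Nek10, Sfi1, Tub and Cdkl1 were named after their values were seen.

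Genes of cilia and flagella, the classic targets of the family, had more promoter than intronic peaks. Over all protein-coding genes the shares were 4.48% with a promoter peak and 2.42% with an intronic one. Promoter peaks were present in 16 of 25 genes of intraflagellar transport, the train that moves cargo along the flagellum, and intronic peaks in 0 of 25. The same counts were 9 and 0 of 12 for the BBSome and its chaperonins, 9 and 0 of 10 for dynein arm assembly, 4 and 0 of 5 for the dynein-2 motor, and 12 and 1 of 21 for the transition zone at the base of the cilium. For the dynein regulatory complex, radial spokes and central pair they were 18 and 1 of 26. The counts at promoters were lower elsewhere, with 3 and 1 of 19 axonemal dynein chains and 4 and 0 of 20 centriole genes. With 25 genes, a count of 0 allows a share of up to 13.7% (exact interval), so the background of 2.42% could not have been told apart from 0. Ahi1, a transition zone gene, had an intronic peak at 55.9, and Dnah2, an axonemal dynein heavy chain, had the only one among 19 axonemal dynein chains, at 227.5 and 20.3-fold with scores of 179.7 and 88.6. That peak was 2.55 kb from the 5′-most TSS.

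In the other gene groups at most 3 genes each had an intronic peak, and the share over all protein-coding genes was 2.42%. The shares were 7.89% of 38 kinesins, 25% of 8 RFX genes and 10.5% of 19 spermatid arrest genes. They were 4.17% of 24 acrosome genes and 11.1% of 27 adhesion genes. Among these, only the interval of the RFX family (exact, 3.19 to 65.1%) lay above 2.42%. Their median lengths ran from 26.5 to 63.5 kb, against 16.9 kb for all genes, and differences in share were not tested. In the kinesin superfamily 3 of 38 were bound, with Kif5c, a neuronal kinesin heavy chain, at 114.7, Kif21b at 70.7 and Kif26b at 47.5. In the RFX family Rfx2 and Rfx4 were bound, the latter at 60.3 with an X-box of 1 mismatch. Among 19 genes that the study lists for arrest of spermatids, Fndc3a, which is needed for adhesion of spermatids to Sertoli cells, had a peak at 134.3 and 32.0-fold with scores of 117.2 and 35.8, over tandem arms without an X-box. Cadm1, an adhesion protein with a like role, had one at 49.3, with scores of 50.1 and 2.94. Spata16 at 54.7 was the only one of 24 acrosome genes. Fscn1, with Cadm1 and Fndc3a again, made up the 3 of 27 genes of cell adhesion and junctions. Intronic peaks were found in 0 of 17 hedgehog genes. Of 18 neurexins, neuroligins and contactins, Nlgn1, Nrxn3 (164.8) and Cntnap5a (54.7) were bound in introns (16.7%, exact interval 3.58 to 41.4%). The share was 16.2% among genes at least as long as the median host of 135.6 kb. The median length of these 18 is 525.3 kb, so that share is not matched to them in length.

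Part of the intronic sites came from related sequence. The 300 bp around each summit were compared with those of all other combined peaks, and 62 intronic peaks (10.6%) aligned to at least 1 other over 80 bp at 75% identity or more, against 210 intergenic peaks (20.4%). The difference was −9.81 points (interval −13.2 to −6.19, Fisher's exact test, adjusted p = 5.94e-07). Linked peaks formed a family of 209, of which 41 were intronic, on 17 chromosomes, and 158 intergenic. All 41 held an X-box, 33 (80.5%) with at most 1 mismatch against 204 of the other 546 intronic peaks (37.4%), and 7 held the palindrome. Their median −log10 p was 80.3, with quartiles of 58.9 and 111.5, against 70.5 for the other intronic peaks. Repeat masking covered the summit in 13 of the 41 (31.7%). The member in Fam155a had the most relatives, 94, and is shown first, followed by the 4 intronic members with the longest alignment to it. All are oriented to it, and the X-box is in capitals. The likeness continues to the left of the X-box and, with shifts, in part to its right. Ica1 and Macrod2 are on the minus strand.
Fam155a, chr8:9431929-9432022: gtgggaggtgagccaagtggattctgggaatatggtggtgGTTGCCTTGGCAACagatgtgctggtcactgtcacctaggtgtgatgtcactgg
Aadat, chr8:60544394-60544487: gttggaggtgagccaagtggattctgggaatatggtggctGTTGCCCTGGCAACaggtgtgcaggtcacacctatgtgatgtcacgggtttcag
Cntnap5a, chr1:115880350-115880443: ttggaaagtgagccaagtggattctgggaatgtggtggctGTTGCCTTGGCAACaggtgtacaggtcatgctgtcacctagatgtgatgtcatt
Ica1, chr6:8688443-8688536: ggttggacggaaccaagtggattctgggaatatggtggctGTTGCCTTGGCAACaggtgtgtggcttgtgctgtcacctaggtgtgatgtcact
Macrod2, chr2:142060179-142060272: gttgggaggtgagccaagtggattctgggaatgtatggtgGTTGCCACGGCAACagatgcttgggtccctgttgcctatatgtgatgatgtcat
Identity to the Fam155a member ran from 76.2% over 227 bp (Aadat) to 81.0% over 195 bp (Ica1), and −log10 p ran from 52.0 in Aadat to 111.5 in Macrod2. Strong intronic peaks of the family included Ank2, an ankyrin of excitable cells, at 217.9.

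A second family of 21 peaks, 2 of them intronic, held the arms 1 bp apart in 20 members and an X-box in 1. Its intronic member in Sema5b, a semaphorin of axon guidance, is shown as an example, with GTTGC in capitals.
Sema5b, chr16:35554159-35554278: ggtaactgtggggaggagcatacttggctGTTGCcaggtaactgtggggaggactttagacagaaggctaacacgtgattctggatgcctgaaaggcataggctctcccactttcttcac

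Repeat masking covered the summit of 68 intronic peaks (11.6%) and of 153 intergenic ones (14.8%), a difference of −3.26 points (interval −6.54 to 0.24, Fisher's exact test, adjusted p = 0.0911). Without the family of 209 the shares were 10.1% and 10.4% (interval of the difference −3.50 to 3.02 points), and the X-box shares of intronic and intergenic peaks were 86.6% and 80.6%, 5.99 points apart (interval 2.01 to 9.78). The authors discarded reads with several genomic locations, so sites in recent repeats can be under-counted in every class.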

How the data were processed

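Per the study's methods, the authors mapped reads of 2 RFX2 ChIP libraries and 2 inputs with Bowtie 0.12.7 after CASAVA 1.8.2, discarded reads with several locations, removed human reads from a second run of replicate 2, and called peaks with MACS2 2.0.10.20130520 (versions per the submitters' processing notes). The deposited lists of both replicates hold a single −log10 value per peak, with p or q not stated. The third deposited list, which is referred to as combined and is attached to replicate 2 in the archive, gives the summit, a score, −log10 q, −log10 p and the ratio of enrichment (fold) over local background. Its peak names point to pooled reads. The methods also describe keeping peaks that recur in both replicates, judged by IDR (irreproducible discovery rate), and the list is near that set in size. Which of these was deposited is not stated. Deposited files gave no counts, so read depth is unknown.

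Peaks were classified with 21853 protein-coding genes of GENCODE mouse release 21 on GRCm38, in the order promoter, exon, intron and intergenic (overlap of 1 bp). The X-box was searched in 200 bp around the summit, or around the centre in replicate lists, at up to 3 mismatches, and 1000 bp further right for comparison. Introns are numbered over merged exons, and distances to exons and starts are taken from the summit. Summit windows of 300 bp were aligned with blastn 2.17.0 (e-value 1e-05). Shares carry Wilson intervals, small gene lists exact ones and differences Newcombe intervals, all at 95% and for counting error only. Fisher's exact, exact McNemar and exact binomial tests (scipy 1.17.1) were two-sided. Members of a family, nearby peaks and genes sharing a peak are not independent, so p-values over peaks are too small. The scripts were tested on simulated windows with planted sites.

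Intronic peaks, gene lists and tests were chosen with earlier results of these data known. Named are the hosts of the 20 strongest intronic peaks, hosts with 3 or more, hosts of up to 20 palindromes (not all of which are printed), hosts in the 15 gene lists, the 3 weakest peaks and the 3 strongest without an X-box. Spacings, tandem arms, CpG-rich summits, blanked motifs, score by mismatch and other named genes were added after the values were seen. No sequence is shown for 1 chromosome, and a peak among the strongest 20 is not reported here. The inputs were not analysed as samples.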

Additional observations from a re-analysis of the deposited data

Results flagged for a closer look

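One result came from data outside the main list. Of the intronic peaks of replicate 1 that also met a peak of replicate 2 but none of the combined list, 1030 of 1787 held an X-box around the centre, or 57.6% (Wilson interval 55.3 to 59.9). The share in their flanks was 1.01% (18 of 1787, interval 0.64 to 1.59), so it stands out because the signal is above its control level in peaks that the combined list leaves out. Among 12052 intronic peaks of replicate 1 that met no peak of replicate 2, the share was 14.2% (interval 13.6 to 14.8). The median scores in replicate 1 were 12.7 and 4.47. Groups of 2 replicates are too small for a search for outlying samples.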

How the results depend on the processing

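Setting the class by the summit gave an intronic share of 28.1%, and X-box differences of 0.52 points from intergenic and 1.75 points from exon peaks, neither called. It turned the difference in share above the median score from intergenic peaks to 0.27 points, not called, and made the difference in masked summits a call, at −4.10 points. The strongest peaks by p-value alone (1363 of the list) gave an intronic share of 17.4%, an X-box difference from intergenic peaks of 3.42 points, not called, and 1.75% of hosts with a promoter peak. Reciprocal overlap gave an intronic share of 19.25% and turned the score difference from intergenic peaks to 0.42 points, not called. The X-box difference from intergenic peaks also lost its call with the narrower promoter (3.195 points), 2 mismatches (5.19), the peak centre (4.95) and the whole peak (3.30), and that from exon peaks with promoters of every transcript (4.21). Counting masked bases in the X-box made the repeat difference a call, at −6.42 points. The longest transcript gave a first-intron share of 32.4%. Leaving out either replicate gave ranges of 36.2 to 37.0% for the intronic share, −0.92 to 0.18 points for the X-box difference from intergenic, −12.1 to −10.3 from exon and −6.83 to −2.32 from promoter peaks, −1.91 to −1.32 for the score and −2.31 to −1.63 for masked summits against intergenic peaks (both then called), 19.7 to 20.2% in first introns and 9.97 to 11.3% of hosts with a promoter peak. In those whole lists the X-box differences from exon and promoter peaks were called, opposite in direction to the combined list. With the single lists limited to their strongest 2726 peaks, the X-box differences from intergenic (1.62 and 2.203 points) and exon peaks (2.51 and 7.87 points) were not called. These shortened lists and the alternatives for the spacing of arms were chosen after seeing the data. In all, 111 alternatives kept direction and call or stayed within the interval, and 7 reversed direction. A call was lost in 13 and gained in 6, and 10 shares left the interval. The cause of these changes was not tested. No paired analysis was possible because the inputs, which share replicate numbers with the ChIP samples, have no peak lists. Depth is unknown, and the small lists leave wide intervals.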
